A study of Mus musculus with 4 samples.

Results

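The genes described here encode the proteins of the cytosolic ribosome. They were chosen by symbol, as Rpl or Rps followed by a number and at most 1 further letter (a, x or l), with Rplp0, Rplp1, Rplp2 and Rpsa, leaving out the S6 kinases and pseudogenes. The name pattern took 81 of the 22026 genes in the tables, and 77 of these had a mean of at least 1 FPKM (fragment counts scaled for the length of the transcript and the size of the library) over the 4 libraries. Of the 77, 45 belong to the large subunit and 32 to the small subunit. Among the members described singly, Rps2 lay nearest above the threshold, with a mean of 2.55 FPKM, and Rpl29 lay nearest below, with 0.28 FPKM. The other symbols under the threshold were Rpl3l, Rpl10l and Rpl39l, which are listed at 0 in every library.

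RNA came from bone marrow derived macrophages of C57BL/6 mice aged 8 weeks, grown for 3 days in CMG14-12 supernatant equivalent to 20 ng/ml of M-CSF, the growth factor of macrophages. There were 2 libraries of wildtype controls (WT) and 2 of the genotype Rbpj f/f;LysM cre (RBP-J KO), in which Cre recombinase is expressed from the lysozyme M locus of myeloid cells. No available description says whether the controls carry Cre or the floxed allele, or how many mice gave each library. By the sex-linked genes described below, the 2 libraries of each genotype came from mice of different sex. The spread behind each p-value of the main test therefore includes sex and table layout, and is not only technical. Spread between mice of the same sex and genotype cannot be read from it. Rbpj encodes the DNA-binding protein of Notch signalling, and the study asked how mRNA levels differ when it is deleted.

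The ribosome is built from 2 subunits. The small one reads the mRNA and the large one joins the amino acids. Each ribosomal protein is needed in about 1 copy per ribosome, apart from the acidic proteins of the stalk, which are present in several. Most mRNAs of these proteins begin with a pyrimidine tract, called TOP, through which the kinase mTORC1 controls their translation. Their genes have given rise to many processed pseudogenes, copies of the mRNA inserted elsewhere in the genome.

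The libraries differ by replicate number in layout and in the sex of the mice, and this touches every comparison. Replicate 1 tables hold genes and replicate 2 tables hold transcripts, which were summed per symbol. In replicate 1 the Y-linked Ddx3y had 193 FPKM in WT and 174 in RBP-J KO and Xist is listed at 0, and in replicate 2 Ddx3y is listed at 0 and Xist had 268 and 290 FPKM. Rbpj measured 355 and 573 FPKM in WT, compared with 51.5 and 77 in RBP-J KO, so the labels held for the targeted gene. All 9 macrophage markers were present in every library, Csf1r between 2287 and 4705 FPKM. Inside both replicate numbers 3 of them were higher and 3 lower in RBP-J KO. Among the lower ones, Cd14 had 1715 and 1570 FPKM in WT, against 764 and 800 in RBP-J KO, and Lyz2 218 and 192, against 94.3 and 115. Lyz2 is the lysozyme M gene, from whose locus Cre is expressed. The part of the Cre allele in its values was not tested. The 10 neutrophil markers with an entry summed to 7052 FPKM in WT and 8348 in RBP-J KO in replicate 1, and to 353 and 1136 in replicate 2. Erythroid markers summed to at most 22.5 FPKM, with Klf1 and Slc4a1 among those at 0. B cell markers summed to at most 37.2 FPKM, T cell markers to at most 34.5, dendritic cell markers to at most 45.4 and stem and progenitor markers to at most 110. The part of other cell types in the results was not tested. In RNA from whole cultures, fewer cells of a type and less RNA per cell cannot be told apart. Values are therefore given inside each replicate number, called pair 1 and pair 2, as RBP-J KO against WT.

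The start of a ribosomal protein gene carries the tract that defines its mRNA class, so the 30 bases around the RefSeq start (build GRCm38.p6, 15 before it and 15 from it on) are shown for 8 members the results turn on. Rps9 and Rpl4 are among the most abundant. Rps27, Rps4x and Rpl22 were among the members higher in both pairs, and Rps23, Rpl26 and Rps27l among those lower. Where a gene has more than 1 annotated start, the most upstream is given. Capitals mark the longest run of pyrimidines.
Rps9 (chr7:3704026-3704055, plus strand): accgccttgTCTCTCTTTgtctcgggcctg
Rpl4 (chr9:64173372-64173401, plus strand): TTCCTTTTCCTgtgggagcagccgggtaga
Rps27 (chr3:90213634-90213663, minus strand): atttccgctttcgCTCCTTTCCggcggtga
Rps4x (chrX:102189377-102189406, minus strand): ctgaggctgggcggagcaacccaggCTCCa
Rpl22 (chr4:152324421-152324450, plus strand): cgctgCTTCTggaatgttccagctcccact
Rps23 (chr13:90923107-90923136, plus strand): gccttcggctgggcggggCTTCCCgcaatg
Rpl26 (chr11:68901551-68901580, plus strand): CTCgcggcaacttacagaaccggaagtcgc
Rps27l (chr9:66946071-66946100, plus strand): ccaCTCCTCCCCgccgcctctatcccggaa
Runs of at least 7 pyrimidines lay in this window for Rps9, Rpl4, Rps27 and Rps27l. Those of Rps9 and Rps27 span the start, while those of Rpl4 and Rps27l end before it, outside the annotated mRNA. The longest run was 6 bases in Rps23, 5 in Rpl22, 4 in Rps4x and 3 in Rpl26. A promoter entry was found for 57 of the 77 members. Of these, 32 (56.1%) had a run of at least 7 anywhere in the window, against 21.3% of 27025 symbols. Such a run is not by itself a TOP tract. The members without an entry include Rpl8, Rpl32, Rplp1 and Rpl30.

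Ribosomal protein mRNAs were among the more abundant ones, but their levels were far from equal. The median member had a mean of 484 FPKM, above 93.0% of the 11851 genes tested, and 26 members were among the 500 highest genes. A mean of at least 1000 FPKM was found for 25 members, of 100 to 1000 FPKM for 42, and of under 100 FPKM for 10. These levels are per transcript length.

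The most abundant members included Rpl8, Rpl32, Rpl4, Rplp1 and Rps9. Rpl8, which lies near the peptidyl transferase centre, had 2931 and 3201 FPKM in the WT libraries, against 2602 and 3460 in the RBP-J KO ones. The values of the groups overlapped. Rpl4, which lines the tunnel that the new peptide leaves by, measured 2790 and 2512 FPKM in WT, compared with 3077 and 2824 in RBP-J KO. Rpl32 gave 2673 and 2740 FPKM in WT, and 3017 and 2896 for RBP-J KO. Both RBP-J KO values of Rpl4 and of Rpl32 lay above both WT values.

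At the other end stood proteins that every ribosome also contains. Rps2, which forms part of the mRNA entry, had 2.89 and 2.52 FPKM in the WT libraries, inside the range of RBP-J KO, whose mean was 2.39 ± 1.62 FPKM (SD, n = 2) with 3.54 in replicate 2. Rps12, of the small subunit head, measured 3.65 and 2.08 FPKM in WT, compared with 3.15 and 6.77 in RBP-J KO. Rpl21, of the large subunit, had a mean of 14.7 FPKM. Rpl26 and Rps27 were also among the lowest. The order of levels was nearly the same in all libraries: over the 77 members, Spearman's rho between any 2 libraries lay between 0.973 and 0.997, as a description across genes.

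**Figure D1:**
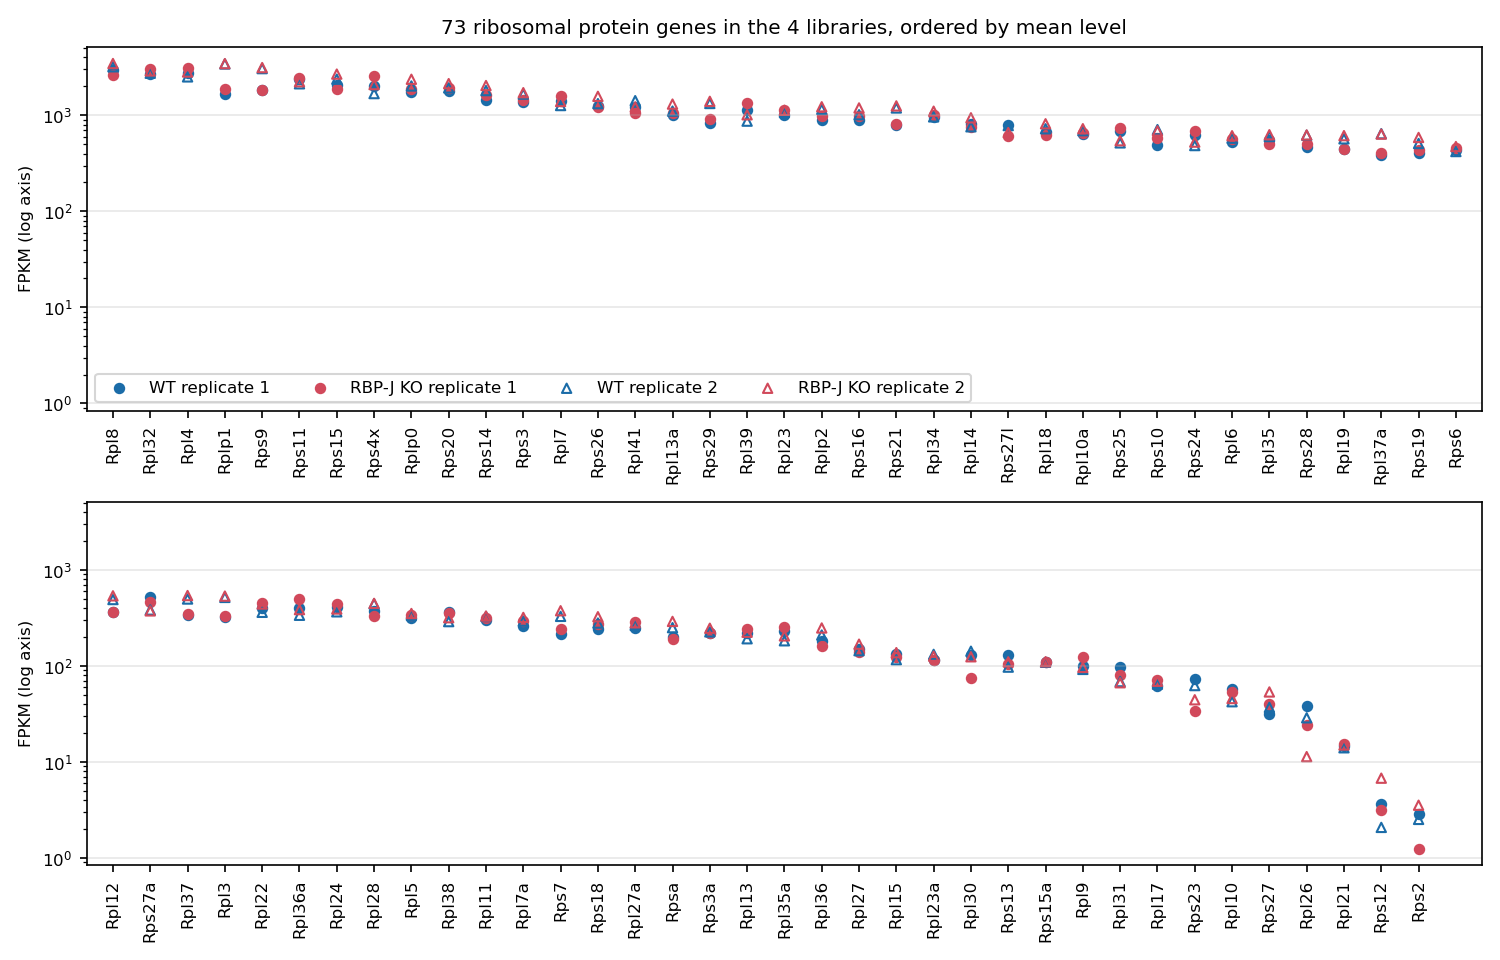
FPKM of 73 of the 77 ribosomal protein genes (log axis) in each library, ordered by mean level from the upper left to the lower right. Circles are replicate 1, triangles replicate 2, blue WT and red RBP-J KO. Most points of a gene nearly coincide, while the last 2 genes, Rps12 and Rps2, lie below 10 FPKM in every library.

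The level of a member went with how much of its sequence occurs elsewhere. Each transcript was divided into all stretches of 50 bases, and the share found in a transcript of another GENCODE M21 gene, on either strand, was counted. The median share over the 77 members was 53.4%, and among those described singly it ran from 2.96% in Rps3 to 95.1% in Rpl35. In members with a mean of at least 1000 FPKM the median share was 35.8%, with a median of 4 pseudogenes that hold such a stretch. It was 67.7% and 10.5 pseudogenes from 100 to 1000 FPKM, and 70.6% and 18 pseudogenes below 100 FPKM. Across the members, Spearman's rho between mean level and shared percentage was -0.46 (n = 77 genes). It was -0.40 with stretches of 36 bases and -0.57 with stretches of 100 bases, and -0.06 between level and transcript length.

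Single genes show both the pattern and its exceptions. Rpl8, Rps3 and Rpl4 shared 7.86%, 2.96% and 16.5% of their stretches, each with 1 pseudogene. Rps2 shared 79.0% with 71 pseudogenes and Rps12 83.6% with 22. Rpl29, below the threshold, shared 66.8% with 81 pseudogenes. Against this, Rps4x shared 72.3% and had a mean of 2087 FPKM, and Rpl21 shared 26.2% and had a mean of 14.7 FPKM. How the authors treated reads that match several places is not given in the sources used here, and its part in these levels was not tested. The levels of members with many near-identical copies are therefore uncertain. Of the pseudogenes in the tables themselves, Rplp2-ps1 gave 1119 and 1710 FPKM in WT, and 1221 and 1825 for RBP-J KO, above Rplp2 in every library.

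**Figure D2:**
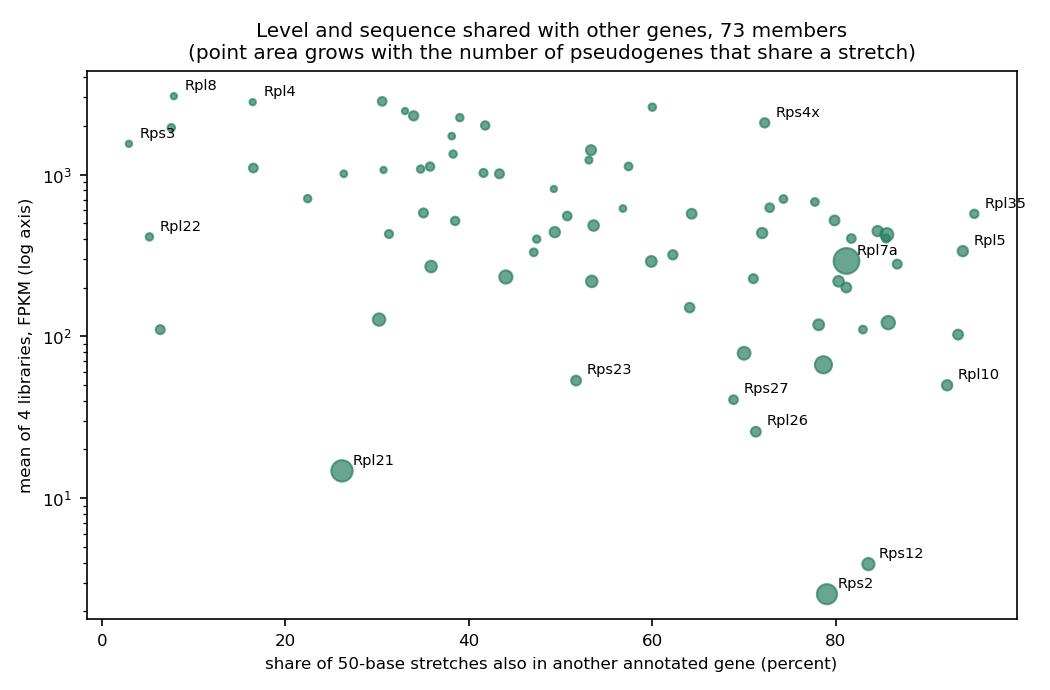
Mean level over the 4 libraries (log axis) against the percentage of 50-base stretches that another annotated gene also holds, 1 point for each of 73 members, with point area growing with the number of pseudogenes. Rpl8, with 7.86% shared, is among the highest, and Rps2 and Rps12, with 79.0% and 83.6%, are among the lowest, while Rps4x is high at 72.3%.

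Between the genotypes most members differed little, and more were higher than lower in RBP-J KO. Inside both pairs 46 of the 77 members (59.7%) were higher and 9 (11.7%) lower, where 25.1% of all 11851 genes were higher and 34.1% lower. The median log2 difference over the members was 0.05 in pair 1 and 0.11 in pair 2, or 1.03-fold and 1.08-fold. Over all genes the median was -0.05 and -0.02. In pair 1 alone 49 members were higher (63.6%, against 44.1% of all genes) and in pair 2 alone 65 (84.4%, against 46.2%). Over the 4 libraries the limma median was 0.08 (1.06-fold), but without RBP-J KO replicate 2 it was -0.016. The latter fit sets RBP-J KO of replicate 1 against WT of both replicate numbers, so the gap between replicate numbers enters it.

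No single member was called. The limma test with Benjamini-Hochberg adjustment put 0 of 77 members, and 0% of the 11851 genes, under an adjusted p of 0.05, and the smallest adjusted p of a member was 0.964. The deleted gene Rbpj was not called either, at a log2 difference of -2.82 and a limma adjusted p of 0.457. The smallest limma adjusted p of any gene was 0.294. The lack of calls therefore does not show that the members are unchanged. At an unadjusted p under 0.05 there was 1 member, Rps23, on the lower side, where 2.24% of all genes were called, and 0 on the higher side, where 2.19% were. Most differences of members were small. In both pairs 70 members (90.9%) stayed less than 25% above and less than 20% below WT, against 44.2% of all genes and 51.2% of those whose mean reached 100 FPKM. Only 1 member, Rps27, was at least 25% higher in both pairs (1.3%, against 7.63% of all genes), and Rps23 and Rpl26 were at least 20% lower (2.6%, against 8.35%). At 1.5-fold in both pairs there were 0 members on the higher side, where 3.86% of all genes stood, and 1 on the lower side, Rpl26, where 3.63% stood.

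**Figure D3:**
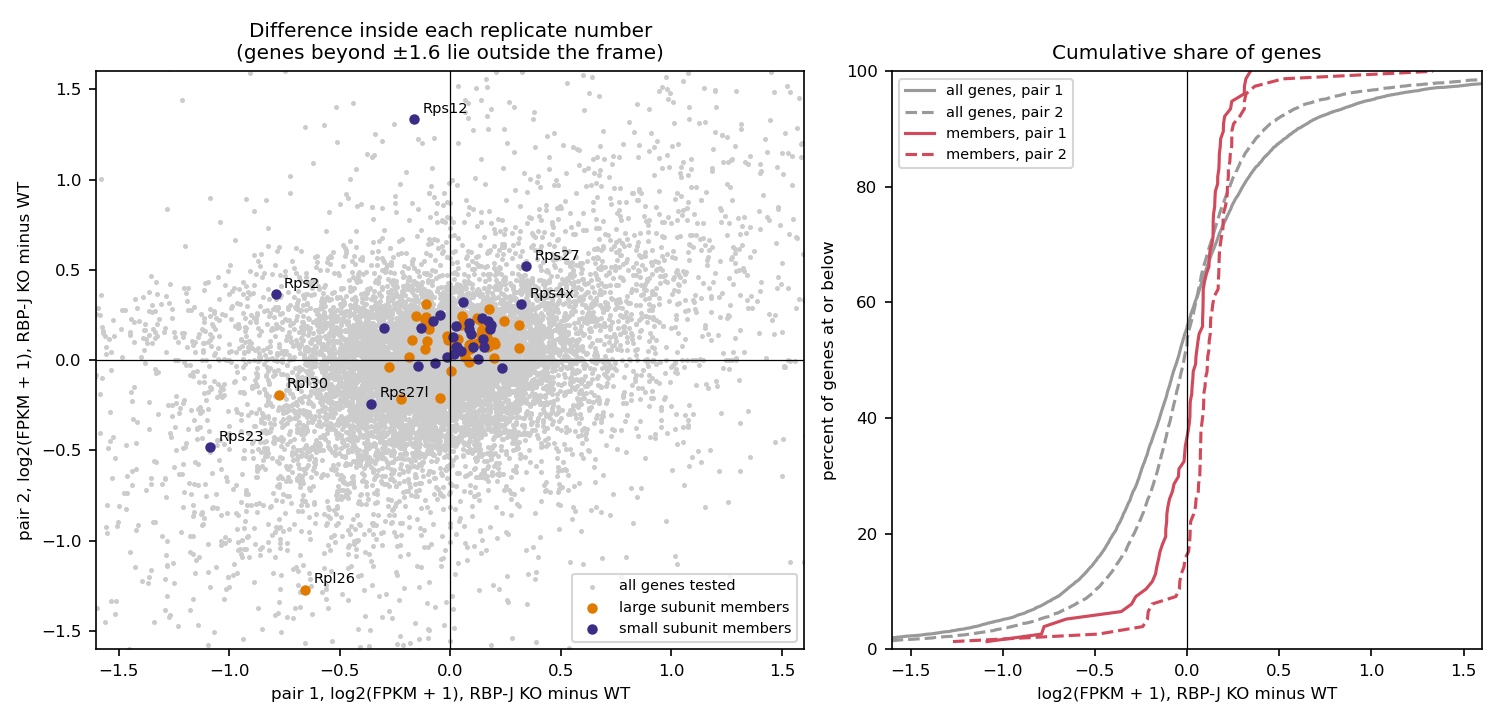
Left, difference of each gene between RBP-J KO and WT on the log2(FPKM + 1) scale in pair 1 (horizontal) and pair 2 (vertical), with all tested genes in grey, large subunit members in orange and small subunit members in violet. Right, the cumulative percentage of genes at or below each difference. The members form a narrow cloud with medians of 0.05 and 0.11, and Rps23, Rpl26, Rps27, Rps12 and Rps2 lie apart.

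The difference between replicate numbers was larger than that between genotypes. The median absolute log2 difference of a member was 0.21 between the WT libraries and 0.30 between the RBP-J KO libraries, against 0.12 and 0.13 between genotypes inside pair 1 and pair 2. For 41 members the gap between the WT libraries exceeded both of their pair differences. Between the WT libraries the gap was largest for Rplp1, of the acidic stalk, at 1.05, with 0.86 in RBP-J KO. Between the RBP-J KO libraries it was largest in size for Rpl26, at -1.03, with -0.41 in WT. The gaps of WT and RBP-J KO had a Spearman rho of 0.74 over the 77 members, as a description across genes that share layout and library preparation.

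Summed over members, ribosomal protein FPKM made up 2.36% of the total in WT and 2.50% in RBP-J KO of replicate 1, and 2.78% and 3.22% in replicate 2. The total was lower in RBP-J KO, at 2346029 FPKM against 2389348 in replicate 1 and 2125327 against 2264597 in replicate 2. Summed member FPKM itself was 1.04-fold and 1.08-fold of WT. The share was higher in RBP-J KO in both pairs, in part through the lower total, but the groups overlapped. An exact permutation test over the 4 libraries (two-sided) gave p = 0.667, where the smallest p this design allows is 0.333. The large subunit stood at 1.04-fold and 1.08-fold of WT in the pairs and the small subunit at 1.04-fold and 1.09-fold. The ratio of large to small subunit sums lay between 1.04 and 1.08 in the 4 libraries.

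Among the members higher in both pairs, the X-linked Rps4x, Rpl36a and Rpl39 had some of the largest differences. Rps4x, a small subunit protein encoded on the X chromosome, had 2036 and 1683 FPKM in the WT libraries, against 2540 and 2088 in the RBP-J KO ones. Both RBP-J KO values lay above both WT values, and the log2 difference was 0.32 in pair 1 and 0.31 in pair 2 (over all libraries 0.31, SE 0.23, limma adjusted p = 0.999). Rpl36a, of the large subunit, measured 396 and 336 FPKM in WT, compared with 492 and 385 in RBP-J KO, so that WT replicate 1 lay above RBP-J KO replicate 2. Rpl39, a small protein of the exit tunnel, gave 1148 and 869 FPKM in WT, and 1358 and 1012 for RBP-J KO, also with overlapping groups. The remaining X-linked member, Rpl10, which joins the large subunit last, had 57.7 and 42.3 FPKM in the WT libraries, against 53.6 and 45.7 in the RBP-J KO ones. Over 367 tested genes of the X chromosome the median log2 difference was -0.10 in pair 1 and -0.04 in pair 2.

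Rps27 had the largest difference that was upward in both pairs. This zinc-finger protein of the small subunit measured 31.6 and 37.0 FPKM in WT, compared with 40.3 and 53.5 in RBP-J KO, 1.27-fold and 1.44-fold (log2 difference 0.43, SE 0.25, limma adjusted p = 0.999). Rpl22, an RNA-binding protein of the large subunit that ribosomes can lack, gave 397 and 361 FPKM in WT, and 448 and 440 for RBP-J KO. Neither Rps27 nor Rpl22 had overlapping groups. Rps7, of the small subunit, went from 215 to 244 FPKM in pair 1 and from 328 to 375 in pair 2, 1.13-fold and 1.14-fold, and its replicate numbers differed more than its genotypes. In all, both RBP-J KO values lay above both WT values for 14 members (18.2%, against 11.7% of all genes) and below them for 4 (5.19%, against 18.2%).

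Of the 9 members lower in both pairs, 4 did not overlap between the groups: Rps23, Rpl26, Rpl30 and Rps27l. Rps23, which lies at the decoding centre, had 72.7 and 62.4 FPKM in the WT libraries, against 33.7 and 44.4 in the RBP-J KO ones. It was 2.12-fold lower in pair 1 and 1.40-fold lower in pair 2 (log2 difference -0.78, SE 0.24, limma unadjusted p = 0.0255, adjusted p = 0.964). Rpl26, at the rim of the exit tunnel and known also as a regulator of p53 mRNA translation, measured 38.6 and 28.8 FPKM in WT, compared with 24.2 and 11.3 in RBP-J KO, 1.57-fold and 2.41-fold lower (log2 difference -0.96, SE 0.43, limma adjusted p = 0.999). These genes share 51.7% and 71.3% of their stretches with other genes, and the part of those copies in the differences was not tested.

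Rpl30, of the large subunit, gave 130 and 142 FPKM in WT, and 75.3 and 124 for RBP-J KO, 1.71-fold and 1.14-fold lower. The replicate 2 tables list it as a pair of transcripts, of which 1 was at 59.3 FPKM in WT and 35.7 in RBP-J KO and the other at 82.8 and 88.7 FPKM. The gene-level difference of pair 2 thus lay in 1 of its 2 entries. Rpl41, which encodes a peptide of the large subunit, had 1223 and 1420 FPKM in the WT libraries, against 1048 and 1223 in the RBP-J KO ones, so that the groups overlapped slightly. Rps27a and Rpl31 were also lower in both pairs.

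Opposite signs in the pairs were found for 22 members (28.6%, against 39.4% of all genes). The widest gaps were in 2 members of low level. Rps12 was 0.89-fold in pair 1 and 2.52-fold in pair 2, and Rps2 0.58-fold and 1.29-fold, all from values under 7 FPKM.

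In the stalk and in the particle that carries 5S rRNA the differences between genotypes were small. The stalk, which recruits elongation factors, holds Rplp0, Rplp1 and Rplp2 on a base with Rpl12. Rplp0 measured 1748 and 2020 FPKM in WT, compared with 1898 and 2373 in RBP-J KO. Rplp1 gave 1658 and 3423 FPKM in WT, and 1900 and 3454 for RBP-J KO, so that its replicate numbers lay further apart than its genotypes. Rplp2 stood 1.11-fold above WT in pair 1 and 1.06-fold in pair 2. Rpl12 went from 368 to 367 FPKM in pair 1 and from 491 to 536 in pair 2. The 4 genes had a median log2 difference of 0.14 in pair 1 and 0.11 in pair 2. Rpl5 and Rpl11 carry 5S rRNA and can inhibit Mdm2. Rpl5 went from 319 to 339 FPKM in pair 1 and from 336 to 351 in pair 2, and Rpl11 from 303 to 317 and from 326 to 330 FPKM. For Rpl5 these are differences of 1.06-fold and 1.04-fold, and for Rpl11 of 1.05-fold and 1.01-fold.

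The 14 proteins of the small subunit head had a median log2 difference of 0.09 in pair 1 and 0.11 in pair 2, with 9 higher and 2 lower in both. For the 8 proteins of the exit tunnel the medians were -0.0024 and 0.08, with 3 higher and 2 lower. The 18 genes mutated in Diamond-Blackfan anaemia, a failure of red cell production, had medians of 0.07 and 0.10, with 9 higher and 3 lower. Of all genes, 25.1% were higher and 34.1% lower in both pairs. In none of these lists did a gene pass the limma test.

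Some ribosomal protein genes have a paralog, and for 4 of them the canonical gene was higher in both pairs while the paralog was lower, except Rpl7l1 in pair 2. Rps27l, a copy of Rps27 known as a target of p53, had 784 and 781 FPKM in the WT libraries, against 612 and 661 in the RBP-J KO ones (log2 difference -0.30, SE 0.17, limma adjusted p = 0.999). It was the more abundant copy in every library, 24.8 and 21.1 times Rps27 in WT and 15.2 and 12.4 times in RBP-J KO. Rps27 shares 68.8% of its stretches with other genes and Rps27l 22.4%. The ratio of Rpl22l1 to Rpl22, where the Rpl22 protein is known to repress its paralog, was 0.80 and 1.65 in WT and 0.66 and 1.13 in RBP-J KO. That of Rpl36al to Rpl36a was 2.20 and 3.14 in WT and was 1.37-fold lower in RBP-J KO in pair 1 and 1.38-fold in pair 2. Rpl7l1 to Rpl7 stood at 0.17 and 0.14 in WT and 0.14 and 0.13 in RBP-J KO. All 4 ratios were lower in RBP-J KO in both pairs, and only that of Rps27l and that of Rpl7l1 did so without overlap of the groups. The 4 pairs of genes were set side by side after their values were seen, and the ratios were not tested.

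**Figure D4:**
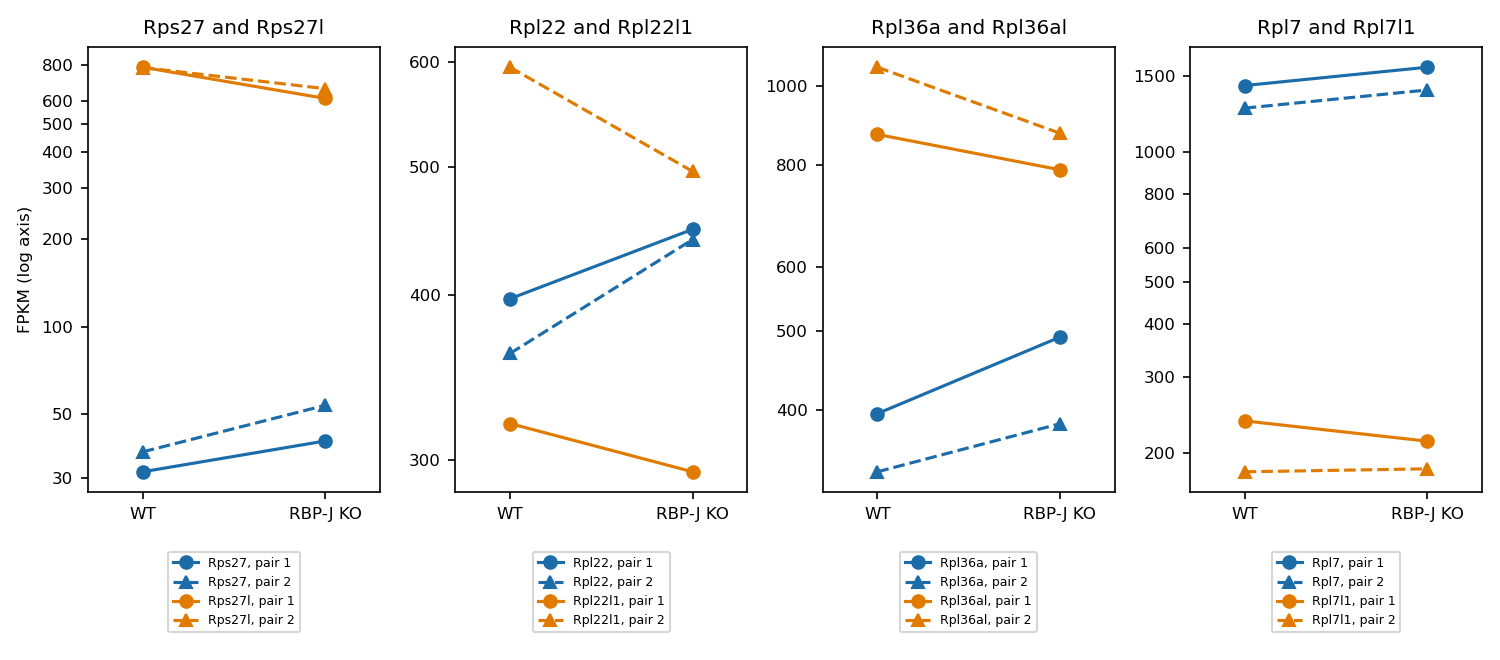
FPKM (log axis) of 4 ribosomal protein genes in blue and their paralogs in orange, in WT and RBP-J KO, with pair 1 as circles on solid lines and pair 2 as triangles on dashed lines. All 4 genes in blue go up in both pairs, and the paralogs go down except Rpl7l1 in pair 2, which is at 181 and 184 FPKM.

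Of the ribosomal proteins whose symbols the name pattern does not take, Gnb2l1, the scaffold RACK1, measured 3454 and 3781 FPKM in WT, compared with 3785 and 4153 in RBP-J KO. Fau, which encodes a small subunit protein fused to a ubiquitin-like domain, was 1.13-fold and 1.08-fold higher.

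The other genes of protein synthesis were counted in the same way. For this and the lists that follow, the shares over all genes were 25.1% higher and 34.1% lower in both pairs. Of 76 proteins of the mitochondrial ribosome, 10 were higher and 42 lower in both pairs, with medians of -0.17 in pair 1 and -0.06 in pair 2. With upper-quartile scaling the lower count was 27 and the pair 2 median 0.01, so the size of this shift depends on the scaling. Mrpl19 gave 63.5 and 63.1 FPKM in WT, and 38.4 and 42.6 for RBP-J KO (limma adjusted p = 0.964). Of 48 ribosome biogenesis factors, 2 were higher and 4 lower in both pairs. Their median was -0.46 in pair 1 and 0.19 in pair 2. Bysl, needed for the small subunit, went from 50.9 to 20.5 FPKM in pair 1 and from 28.7 to 36.01 in pair 2. Beside them, 20 proliferation genes had medians of -1.49 and 0.11, while the ribosomal protein genes had 0.05 and 0.11.

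Initiation factors had 5 of 28 members higher and 10 lower in both pairs, with medians of -0.17 and 0.02. Eif4a2, a helicase, had 362 and 226 FPKM in the WT libraries, against 541 and 382 in the RBP-J KO ones, while Eif4g1, the scaffold of the cap complex, measured 632 and 511 FPKM in WT, compared with 443 and 461 in RBP-J KO. Of 12 elongation factors and other mRNAs that start with a pyrimidine tract, 3 were higher and 3 lower in both pairs. Eef2, the translocase, went from 3016 to 3608 FPKM in pair 1 and from 3167 to 3500.0 in pair 2, and Pabpc1, the poly(A)-binding protein, was 1.19-fold and 1.21-fold higher. Hnrnpa1, an RNA-binding protein, went from 72.5 to 48.7 FPKM in pair 1 and from 64.4 to 50.9 in pair 2, without overlap of the groups (limma unadjusted p = 0.0749, adjusted p = 0.999). Among 13 genes of RNA polymerase I and its factors, which make rRNA, 4 were higher and 0 lower in both pairs.

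Of the 20 genes of the mTORC1 and S6 kinase pathway, 4 were higher and 6 lower in both pairs, where 25.1% and 34.1% of all genes were. Here Rps6ka1 gave 281 and 250 FPKM in WT, and 475 and 334 for RBP-J KO, while Rps6ka3 went from 416 to 244 FPKM and from 292 to 201. Both encode kinases of the RSK family. Myc, which drives ribosome production, went from 112 to 95.4 FPKM in pair 1 and from 59.0 to 117 in pair 2. Of 12 p53 targets, 4 were higher and 2 lower in both pairs, and Sesn2, an inhibitor of mTORC1, went from 33.2 to 76.1 FPKM and from 53.8 to 82.8. No gene of these lists had an adjusted p under 0.05 in limma. At a limma unadjusted p under 0.05 there were 1 mitochondrial ribosomal protein gene, Mrpl19, on the lower side and 1 p53 target, Sesn2, on the higher side. Of all genes, 2.24% and 2.19% were called on these sides.

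Promoter motifs were counted in the window from 250 bases before to 50 after each RefSeq start. All were searched on both strands, and a symbol was counted if any of its annotated starts had a match. The Ets factor motif CTTCCGG was held by 24 of 57 members (42.1%), against 9.93% of all symbols. The motif AAGATGGC, known for YY1, was held by 5 (8.77%, against 3.19%) and CACGTG, bound by Myc, by 6 (10.5%, against 8.09%). The RBP-J core TGGGAA was held by 12 members (21.1%, against 28.3%). Of these, Rps4x, Rpl36a, Rpl39, Rpl22 and Rps7 were named above for their upward differences, so they do not represent all carriers. The match of Rpl22 lay at its downstream start, not at the start shown above. The median log2 difference of these 12 was 0.16 in pair 1 and 0.19 in pair 2, with 10 higher in both pairs, and the 45 without it had medians of 0.03 and 0.12, with 23 higher in both. Of all genes tested, 25.1% were higher in both pairs. The same split by the core was not made over all genes, so these values do not tie the core to a difference. A match is only a description of these letters.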

How the data were processed

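The labels' protocols name Illumina's TruSeq RNA preparation. TopHat, Cufflinks and build mm9 are named in the submitters' processing notes, without versions, annotation or options. No header names a unit, and the deposited values were taken as FPKM, which Cufflinks writes. Read depth is unknown, so no counting interval was computed.

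Tables of replicate 1 list 22026 genes. Those of replicate 2 list transcripts (27583), which were summed per symbol, after 25 symbols turned into dates had been restored by their description. The scale of all tests was log2(FPKM + 1), on which changes of low genes come out too small, for the 11851 genes with a mean of 1 FPKM or more. The test was limma 3.58.1 (R 4.3.3), fitted on genotype with a trended variance, two-sided at 0.05 after Benjamini-Hochberg adjustment over all genes, and checked on simulated data. Fold changes of genes and medians are on this scale, while those of summed FPKM and of paralog ratios are on plain FPKM. SE is that of the limma difference, and the members were not tested as a set. Shared stretches came from GENCODE M21 transcripts, matched by RefSeq identifier for all 77 members, and promoters from RefSeq. Figures used Python 3.11.15 and matplotlib 3.10.9.

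Members, lists and tests were chosen with earlier results of these data known. Members named singly were the 6 highest and 6 lowest in level, up to 6 per direction with the largest difference found in both pairs, up to 4 per direction by p, the 4 with the widest gap between pairs, and those of fixed lists. Some of these are not reported here, and counts and medians still include them. Others were chosen after their values were seen. Alternatives covered pseudocount, filter, scaling, trend, replicate block, transcript summing, pseudogenes and each library left out.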

Additional observations from a re-analysis of the deposited data

How the results depend on the processing

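No member passed an adjusted p of 0.05 in limma under any alternative run. The median log2 difference over members was 0.13 with median ratio scaling and 0.16 with quantile normalization, and with single libraries left out it ranged from -0.016 (without RBP-J KO replicate 2) to 0.15 (without RBP-J KO replicate 1). Members higher in both pairs numbered 52 and 53 under median ratio and upper-quartile scaling. Among all genes the higher share of same-sign genes was then 51.1% and 51.8%, against 42.4% as deposited. At a mean of at least 100 FPKM, chosen after seeing the data, 43 of 67 members were higher (64.2%, against 22.4% of all such genes) and 5 lower (7.46%, against 39.4%) in both pairs. At least 25% higher in both pairs were 0 members with a pseudocount of 5, and 2 under each of the 3 scalings. With the replicate number as a block, 2 members (2.6%, against 6.94% of all genes) had an unadjusted p under 0.05 on the lower side, and with single libraries left out that count ranged from 0 to 2. Deviations of libraries with the same number were correlated (r = 0.64). The number goes with sex and table layout, but no label says that it marks a shared source. Under the block the limma adjusted p was 0.064 for Rbpj, 0.232 for Rpl26 and 0.271 for Rps23. These are far below the values of the main fit, and still 0 of the 11851 genes were under 0.05. Counts over both pairs have no value with a library left out.

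The log2 difference of Rpl8 was 0.016, 0.014 and 0.094 under median ratio, upper-quartile and quantile scaling, against a negative value as deposited. With single libraries left out, 12 named genes turned sign. The ranges were -0.027 to 0.32 for Fau, -0.22 to 0.22 for Rpl10, -0.013 to 0.095 for Rpl11 and -0.21 to 0.33 for Rpl12. They were -0.64 to 0.26 for Rpl22l1, -0.26 to 0.13 for Rpl7l1, -0.24 to 0.18 for Rpl8, -0.42 to 0.63 for Rplp1 and -0.061 to 0.31 for Rplp2. They were -0.72 to 0.30 for Rps2, -0.12 to 0.50 for Rps7 and -0.36 to 0.41 for Rps9. With 1 library left out, 1 genotype is held by 1 replicate number only, so the gap between replicate numbers enters the difference. Rps7, for example, had log2 differences of 0.18 and 0.19 in the pairs and a gap of 0.61 between the WT libraries. By themselves these sign changes therefore do not show that the differences inside the pairs are unstable. For Rps2, Rpl8, Rpl10, Rpl12 and Rpl7l1, however, the pairs themselves had opposite signs.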
